A study of Mus musculus with 2 samples.

Results

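The genes described here set or mark whether a neuron releases glutamate, GABA or glycine: Slc17a6, Slc17a7, Slc32a1, Slc6a5, Slc6a9, Slc6a11, Gad1, Gad2 and Pax2. Their probes were chosen by gene name, as every non-control probe on the array that the files list under 1 of these 9 names, which gave 18 probes among 37074 gene names in all. The RNA came from dorsal root ganglion (DRG) neurons of C57BL/6 mice that all carried the AND T cell receptor transgene. One group was heterozygous, Dock8+/- (tcr)AND Tg, and labelled as having a low level of IL-31, an itch-inducing cytokine. The other group lacked DOCK8, an exchange factor of immune cells, and is written Dock8-/- (tcr)AND Tg, with the label of a high IL-31 level. Each genotype had 1 array. The labels give no age, sex, number of pooled animals or promoter of the transgene. Every difference below is therefore a difference between 2 arrays, with no replicate check and no p-value, and it cannot be told apart from a difference between samples of the same genotype.

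Glutamate is the transmitter of primary sensory neurons, and vesicular glutamate transporters load it into synaptic vesicles. GABA and glycine are the inhibitory transmitters of the spinal dorsal horn, the central target of DRG axons. Glutamate decarboxylases make GABA, a common vesicular transporter packs both inhibitory transmitters, and plasma membrane transporters of the SLC6 family return them to neurons or glia. Most genes of the inhibitory set are therefore known for spinal interneurons and their glia rather than for sensory neurons. In RNA from bulk samples, fewer cells of a type and less RNA per cell cannot be told apart.

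The probes on which the results turn are shown first, since probes of the same gene gave different values. Sequences are printed 5′ to 3′ as the scanner files list them. Those of Slc6a5 (NM_001146013) and of Pax2 at starts 98 and 1035 are given in full, and of the others 30 of 60 bases. Capitals mark AATAAA, the usual polyadenylation signal, the only letters capitalised.
Slc17a6, NM_080853, bases 1 to 30: taagtgcaaagcataaaacctcctgtgtgt
Slc32a1, NM_009508, bases 1 to 30: aaactcatcttgtgcaatgtatccggtcgt
Slc6a5, NM_001146013: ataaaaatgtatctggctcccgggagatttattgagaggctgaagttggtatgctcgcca
Slc6a5, ENSMUST00000056442, bases 1 to 30: gcttattatatactgtgcattattcattta
Gad2, NM_008078, bases 1 to 30: agtaacaggacaaagaagcaaaaacatcaa
Gad2, AK141473, bases 31 to 60: aggtactgtgcaaccagcaatAATAAAggg
Pax2, NM_011037, start 98: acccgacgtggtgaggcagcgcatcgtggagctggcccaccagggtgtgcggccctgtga
Pax2, NM_011037, start 1035: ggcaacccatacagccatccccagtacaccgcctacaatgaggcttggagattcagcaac
Pax2, NM_011037, start 2112, bases 1 to 30: gcaaaaagcctggaaggaactgacgaccga

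These probes lie, on mouse build mm9, at chr7:58926067-58926126 (Slc17a6), chr2:158441324-158441383 (Slc32a1), chr7:57211900-57214662 and chr7:57219046-57219105 (Slc6a5), chr2:22549095-22549154 and chr2:22480520-22480579 (Gad2), and chr19:44835420-44835479, chr19:44909895-44909954 and chr19:44911445-44911504 (Pax2). The files give no strand for these positions, and no annotation of exons or UTRs was used here for mm9. The 60 bases of the first Slc6a5 probe cover 2763 bases of the genome, so that probe crosses an intron. A start is the probe's position as the files count it, taken here as that within the listed transcript. AATAAA stood on the printed strand of 1 of the 18 probes, that of Gad2 for AK141473, and on the other strand of 1. Over all 56605 probes of 60 bases it stood on the printed strand of 9.77% and on the other strand of 3.85%. ATTAAA, its common variant, also stood on the printed strand of 1 of the 18, against 3.86% of all. None of the 18 held 4 GA or GAA units in a row on either strand (0 of 18). GC content ran from 35% to 70%, with the Pax2 probe at start 98 the highest, beside a median of 41.7% over all probes.

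A probe is called read where the scanner software flags it as well above background. Of the 18 probes, 9 were read on both arrays, 2 on the Dock8+/- array only and 0 on the Dock8-/- array only. A further 6 were at background in both genotypes, and 1 spot was left out as non-uniform. Among all 56601 non-control probes kept, 27734 were read on both arrays, 4467 on the Dock8+/- array only and 956 on the Dock8-/- array only. The 9 probes read on both arrays covered 8 of the 9 genes, all except Slc17a7. The Dock8+/- array read 56.9% of all non-control probes and the Dock8-/- array 50.7%, down to an intensity of 17.4 and 16.1. Their 75th percentiles of intensity were 303.8 and 145.6, so log2 values were scaled by subtracting it from each array. All 11 DRG neuron markers were well above background on both arrays, with a median log2 difference of 0.01. Markers of satellite glia (7 of 7) and of meninges and fibroblasts (9 of 9) were read on both arrays as well.

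**Figure D1:**
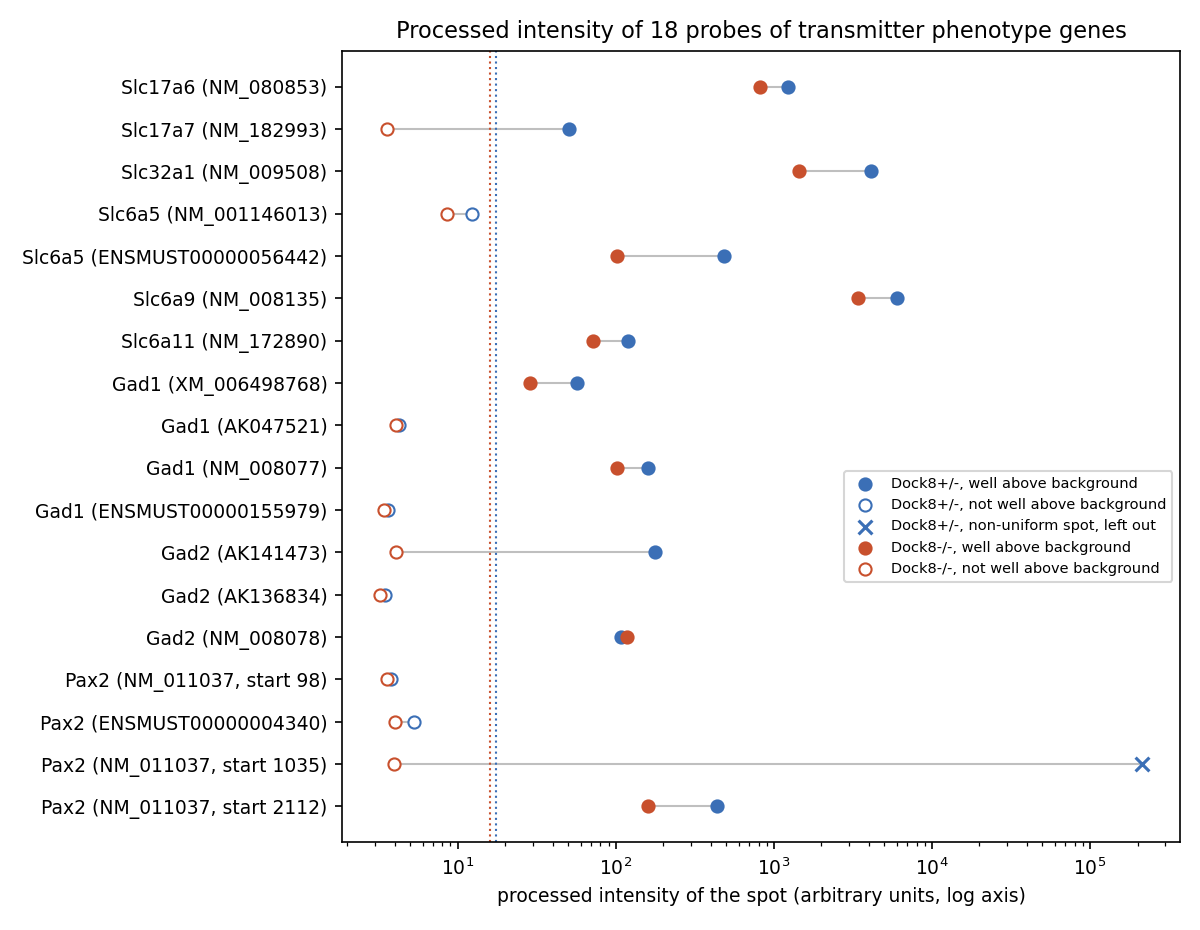
Processed intensity (arbitrary units, log axis) of each of the 18 probes on the Dock8+/- and the Dock8-/- array, 1 spot per point, before scaling between arrays. Filled points are well above background, open points are not, the cross is a non-uniform spot that was left out, and dotted lines mark the lowest intensity read on each array. Gad2 (NM_008078) is the only one of the 9 probes read on both arrays that is brighter on the Dock8-/- array, while Slc17a7 and Gad2 (AK141473) are read on the Dock8+/- array only.

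Every gene except the excitatory Slc17a7 was read in both genotypes by at least 1 probe. Most of the 9 probes read on both arrays lay close together after scaling. After scaling, 6 of the 9 probes read on both arrays were higher in Dock8-/- and 3 lower, with a median log2 difference of 0.23, beside 0.09 over all 27734 probes read on both. At least 2-fold apart were 1 higher probe, of Gad2, and 1 lower probe, of Slc6a5. Of all probes read on both arrays, 11.8% were higher by that size and 7.06% were lower, so 1 of 9 in each direction is close to that background. The higher share of all probes past 2-fold was 62.5%, and 50.4% under loess, 50.5% under normexp and 0.317% under spike-in scaling. The other 7 lay within 1.5-fold. Each direction given here is set by the 75th percentile of the array. On the scale of the spike-in transcripts every probe shifts by -1.85 on the log2 scale, and all 9 were lower in Dock8-/-. Before any scaling, 8 of the 9 were dimmer on the Dock8-/- array.

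The error of a value was judged from 3 sources. The scanner software gives each spot an error, printed here after ±, whose main term is a preset share of the intensity. Probes spotted 10 times had a standard deviation within the array that puts the SD of a difference between single spots at 0.06 log2 units. Probes of the same gene varied far more: over 6226 genes with several read probes, the pooled SD of their log2 differences was 0.61, and the SD expected between the differences of 2 such probes was 0.86. None of these errors covers differences between animals.

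**Figure D2:**
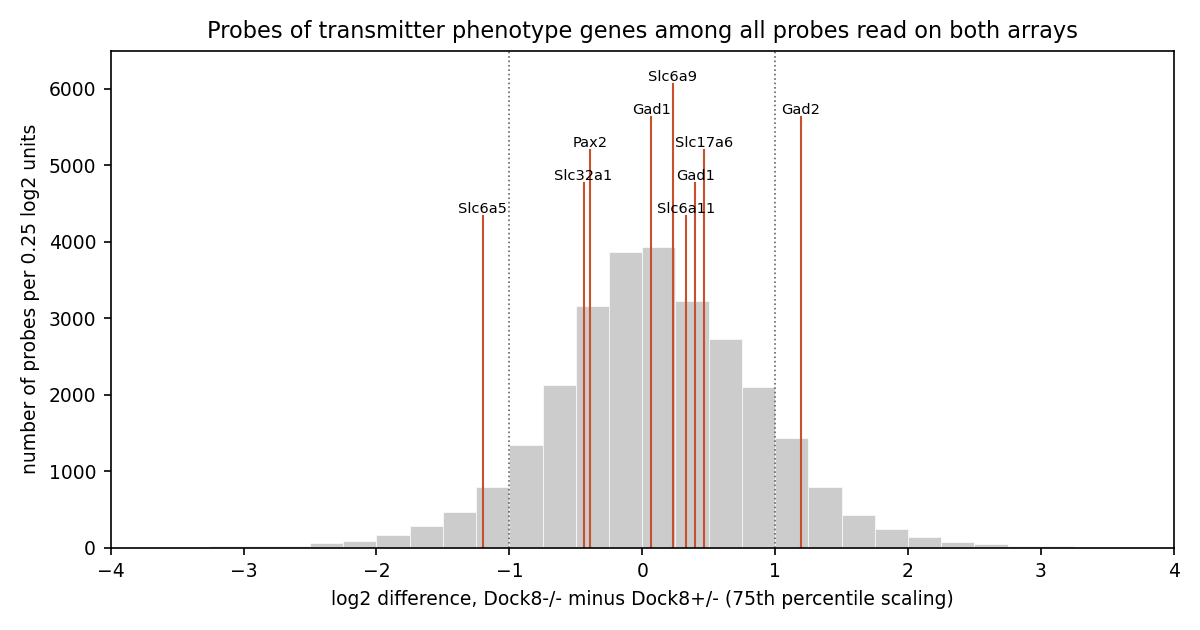
Log2 difference (Dock8-/- minus Dock8+/-, scaled to the 75th percentile) of all 27734 probes read on both arrays, as grey bars of 0.25 log2 units, with the 9 probes of transmitter phenotype genes as labelled lines whose heights carry no value. The axis ends at 4 log2 units in each direction. Dotted lines mark 2-fold. Gad2 at 1.19 and Slc6a5 at -1.20 lie beyond them, and the other 7 lie between -0.44 and 0.47; on the spike-in scale all 9 are below 0.

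Slc17a6 encodes VGLUT2, the vesicular glutamate transporter of most DRG neurons. Its single probe had a processed intensity of 1229 ± 123 in Dock8+/- and 813 ± 81.4 in Dock8-/-. Its signal was thus clearly read on both arrays and was dimmer in Dock8-/- by less than the arrays as a whole. The scaled log2 difference was 0.47 ± 0.20, or 1.38-fold higher. Among all probes read on both arrays, 69.4% had a smaller difference. The value ran from 0.46 to 0.50 under the other scalings and background corrections apart from the spike-in scale, where it was -1.39.

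Slc17a7 encodes VGLUT1, which is known from large myelinated sensory neurons and from many cortical neurons. Its single probe, at chr7:52430841-52430900, gave 50.8 ± 6.30 in Dock8+/- and 3.58 ± 3.51 in Dock8-/-. The second value is about as large as its own error. After 75th percentile scaling, the signal was at least 1.51-fold lower in Dock8-/- against the lowest intensity read there. This bound, -0.59 on the log2 scale, is below the 2-fold size, and the difference under normexp was -0.57. By their bound, 15.7% of the 4467 probes read in Dock8+/- alone were lower by 2-fold or more. Slc17a8, the third vesicular glutamate transporter gene, differed by 0.30, from an intensity of 299.2 to one of 176.1.

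Slc32a1 encodes VIAAT, the vesicular transporter of GABA and glycine and a defining gene of inhibitory neurons. Its single probe gave 4112 ± 411 in Dock8+/- and 1451 ± 145 in Dock8-/-, both far above the lowest intensity read. The scaled log2 difference was -0.44 ± 0.20, or 1.36-fold lower. It lay between -0.44 and -0.39 under every scaling and background correction other than spike-ins, where it was -2.29. Among probes read on both arrays, 21.9% had a lower value. The gene has 1 probe, so its value could not be set beside another.

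The difference between Slc17a6 and Slc32a1 does not depend on a constant scaling of the arrays. Slc17a6 lay 0.91 ± 0.29 log2 units above Slc32a1 in its difference, so the excitatory gene was 1.87-fold higher relative to the inhibitory gene in Dock8-/-. This ran from 0.88 to 0.91 over the main setting and quantile, loess, normexp and the authors' value table. It is larger than the software's error but close to 0.86, the SD expected between 2 probes of 1 gene. It is thus about the size of the disagreement between probes. Against the Gad2 probe for NM_008078, also of an inhibitory gene, Slc17a6 went the other way, with -0.73 ± 0.30, and from -0.73 to -0.26 over the same settings.

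Slc6a5 encodes GlyT2, the transporter by which glycinergic neurons take glycine back. The probe for ENSMUST00000056442, with start 6884, gave 485.8 ± 48.8 in Dock8+/- and 101.4 ± 10.9 in Dock8-/-. Its scaled log2 difference of -1.20 ± 0.21, or 2.29-fold lower, was the lowest among the 9 probes, and 4.65% of all probes read on both arrays had a lower one. It was -1.24 under loess and -0.92 under normexp, below the 2-fold size there. The probe for NM_001146013, with start 2288, which crosses an intron, gave 12.4 ± 4.89 and 8.57 ± 4.56 and was read on neither array. The lower value of Slc6a5 therefore rests on 1 of its 2 probes.

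Slc6a9 encodes GlyT1, the glycine transporter found mostly on glia. Its single probe, at chr4:117541842-117541901, was bright on both arrays, with 6056 ± 606 in Dock8+/- and 3405 ± 341 in Dock8-/-. The scaled log2 difference was 0.23 ± 0.20, or 1.17-fold higher, about the size of the error that the scanner software gives. It was above the SD of 0.06 measured between single spots. The difference of Slc6a9 lay 1.43 ± 0.29 log2 units above that of Slc6a5, and from 1.22 to 1.52 over quantile normalisation, loess, normexp and the value table. The gap between the glycine transporter genes was thus larger than the SD of 0.86 expected between 2 probes of 1 gene. On the spike-in scale both were lower in Dock8-/-, Slc6a9 at -1.62 and Slc6a5 at -3.05.

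Slc6a11 encodes GAT3, a GABA transporter of astrocytes. Its single probe, at chr6:114199514-114199573, gave 119.5 ± 12.8 in Dock8+/- and 71.9 ± 8.35 in Dock8-/-. The scaled log2 difference was 0.33 ± 0.23, or 1.26-fold higher, and fell to 0.11 under normexp. It is within the disagreement of probes of 1 gene.

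Gad1 encodes the decarboxylase that makes most GABA of the cell body. Of its 4 probes, 2 were well above background on both arrays and 2 on neither. The probe for NM_008077, at chr2:70439699-70439758, gave 160.7 ± 16.6 in Dock8+/- and 101.6 ± 10.9 in Dock8-/-, a scaled log2 difference of 0.40 ± 0.21. The probe for XM_006498768, a predicted variant, lies at chr2:70399873-70399932 and gave 56.8 ± 6.94 and 28.5 ± 4.71. Its difference of 0.07 ± 0.30 turned to -0.22 under loess, -0.12 under quantile normalisation and -0.06 under normexp, so it has no settled direction. The probes for AK047521 and ENSMUST00000155979 read 4.28 and 4.08, and 3.63 and 3.39, all of them surrogate values that the software sets for spots at background.

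Gad2 encodes the decarboxylase of synaptic terminals, and its 2 readable probes went opposite ways. The probe for the full mRNA NM_008078 gave 108.1 ± 11.5 in Dock8+/- and 118.5 ± 12.4 in Dock8-/-. It was the only one of the 9 probes whose unscaled intensity was not lower in Dock8-/-. Its scaled log2 difference was 1.19 ± 0.22, or 2.29-fold higher, and 92.4% of probes read on both arrays had a smaller one. It was 0.73 under normexp, below the 2-fold size, and -0.66 on the spike-in scale.

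The Gad2 probe for AK141473, a cDNA that the files list as from embryonic spinal cord, gave 176.8 ± 18.2 in Dock8+/- and a surrogate value of 4.05 in Dock8-/-. After 75th percentile scaling it was at least 5.26-fold lower in Dock8-/- against the lowest intensity read there, a log2 bound of -2.39. Under normexp its log2 difference was -1.60, a smaller fall than that bound. This probe, whose last 30 bases hold AATAAA as printed above, has the lowest mm9 coordinates of the 3 Gad2 probes. The third Gad2 probe, for AK136834 at chr2:22538104-22538163, read 3.48 and 3.23 and was at background on both arrays. No single direction can be given for Gad2 from these probes.

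The Gad2 (NM_008078) difference lay 0.79 ± 0.30 log2 units above that of Gad1 (NM_008077), and 1.64 ± 0.30 above that of Slc32a1. Over quantile, loess, normexp and the value table the first ran from 0.50 to 0.80 and the second from 1.14 to 1.55. The first is within the SD of 0.86 expected between 2 probes of 1 gene, and the second is beyond it. Both rest on 1 of the 2 readable Gad2 probes, and the other went the opposite way.

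**Figure D3:**
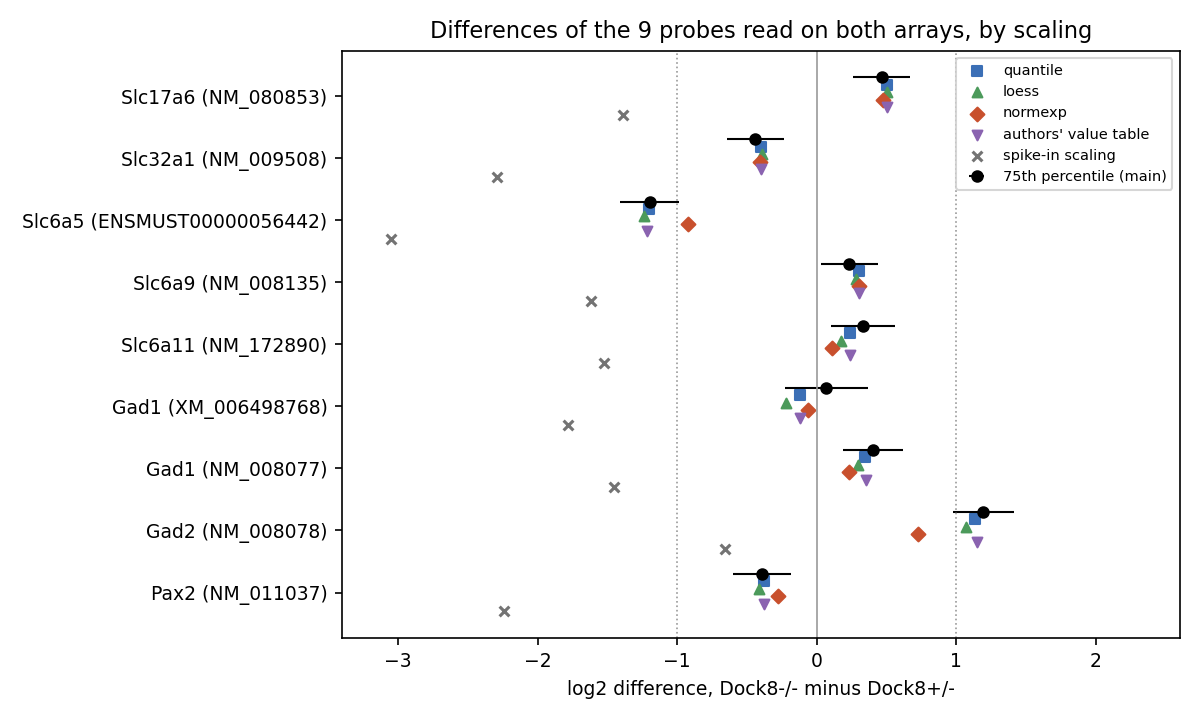
Log2 difference (Dock8-/- minus Dock8+/-) of the 9 probes read on both arrays under 6 settings, with bars for the error that the scanner software gives the main value. Dotted lines mark 2-fold. Slc6a5 and Gad2 pass them except under normexp and, for Gad2, spike-in scaling, which moves every probe by -1.85.

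Pax2 encodes a transcription factor of dorsal horn inhibitory neurons. The probe at start 2112 of NM_011037 was the only usable one and gave 438.6 ± 44.03 in Dock8+/- and 160.2 ± 16.4 in Dock8-/-. The scaled log2 difference was -0.39 ± 0.21, or 1.31-fold lower, and ran from -0.41 to -0.28 apart from spike-in scaling. The difference of Slc32a1 minus that of Pax2 was -0.05 ± 0.29, smaller in size than the software's error. The Pax2 probes at start 98 and for ENSMUST00000004340 (chr19:44871124-44871183) read 3.80 and 3.57, and 5.27 and 4.02, and were read on neither array.

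The Pax2 probe at start 1035 had an intensity of 212533 ± 47324 on the Dock8+/- array and a surrogate value of 3.96 on the Dock8-/- array. The scanner software marked the bright spot as non-uniform. Its pixels had a mean of 201160, a median of 13117 and an SD of 296998, and the 24 spots within 2 rows and 2 columns ranged from 4.22 to 2467. The spot was left out here. The authors' deposited value table keeps it, at 199501 in Dock8+/- and 4.11 in Dock8-/-, the largest fall from Dock8+/- to Dock8-/- among its 56605 probes (rank 1). With this spot kept, the scaled log2 difference of that probe was -14.65, against -0.39 on the usable Pax2 probe.

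The other genes of glutamate, GABA and glycine handling were taken as a list of 35, of which 33 were well above background on both arrays by their brightest probe. In Dock8-/- 19 were higher, 3 of them by 2-fold or more, and 3 were lower by 2-fold or more, with a median log2 difference of 0.08 beside 0.03 over all 18664 genes read in this way. Among all those genes, 9.08% were higher by this size and 7.02% lower. On the spike-in scale 2 of the 33 were higher. The list as a whole was therefore near the background, and a few transporters stood outside 2-fold.

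The astrocytic glutamate transporter genes Slc1a2 and Slc1a3 were 3.79-fold and 2.08-fold higher, and on the spike-in scale differed by 0.07 and -0.79. Lower were Slc38a5, an amino acid transporter gene, by 3.32-fold, Slc25a22, a mitochondrial glutamate carrier gene, by 2.38-fold on its brighter of 2 probes and with -0.23 on the log2 scale for the other, and Slc6a13, a GABA transporter gene of meninges, by 2.37-fold. Abat, which encodes the enzyme that breaks down GABA, differed by 0.45, and Glul, the glutamine synthetase of satellite glia and astrocytes, by 0.43, while their other probes reached 0.87 and 1.19. On the spike-in scale Abat, Glul and Slc17a8 were lower, at -1.40, -1.42 and -1.55.

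Markers of spinal neurons and glia are given beside these values, since the inhibitory genes are known from the spinal cord. Of 16 other markers of inhibitory dorsal horn neurons, 7 were read on both arrays by their brightest probe, with a median difference of 0.50 and 6 higher. Lbx1, a transcription factor of dorsal horn neurons, was 5.24-fold higher, from an intensity of 39.5 in Dock8+/- to 99.1 in Dock8-/-. The peptide genes Pdyn and Npy, read in Dock8-/- alone, had bounds of at least 9.61-fold and 7.28-fold higher, whereas the potassium channel interacting gene Kcnip2, read in Dock8+/- alone, was at least 3.64-fold lower. Ptf1a, Rorb and Tfap2b were read on neither array. Summed over the 16, the unscaled intensity was 16954 in Dock8+/- and 5317 in Dock8-/-, a log2 difference of -0.61 after scaling. Of these sums, 15109 and 4063 came from Pvalb, also a gene of proprioceptors and named after its value was seen. Inhibitory markers thus went in both directions, as the genes above did, and on the spike-in scale 1 of the 7 was higher.

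Of 14 markers of excitatory dorsal horn neurons, 9 were read on both arrays, with a median of -0.05 and 4 higher. Of these 9, 3 were higher by 2-fold or more and 1 lower, beside 9.08% and 7.02% of all genes by brightest probe. Nmur2 and Nmu were read in Dock8-/- alone, with bounds of at least 3.65-fold and 2.78-fold higher, and 0 of the 14 in Dock8+/- alone. Tac2, a tachykinin peptide gene of these neurons, went from an intensity of 21.1 in Dock8+/- to 677.2 in Dock8-/-, or 67.0-fold on 1 probe. It was 4.22 higher on the spike-in scale too. The value of 21.1 is close to 17.4, the lowest intensity read on the Dock8+/- array, so the size of the fold is uncertain. Ebf2 went the other way and was 2.33-fold lower, from 748.4 in Dock8+/- to 154.0 in Dock8-/-. Motor neuron markers had a median of -0.08 over 5 genes, with 2 higher. By 2-fold or more, 1 of the 5 was higher (Chat 2.41-fold) and 1 lower (Slc18a3 2.61-fold), beside the same shares of all genes. Astrocyte markers had a median of 0.92 over 10 genes, with 5 higher by 2-fold or more (Gfap 8.42-fold) and 0 lower. Their unscaled intensities summed to 17233 in Dock8+/- and 17077 in Dock8-/-, a log2 difference of 1.05 after scaling. Oligodendrocyte markers had a median of 1.11 over 7 genes, with 4 higher by 2-fold or more (Hapln2 4.75-fold and Ermn 4.71-fold) and 0 lower. Over their whole list the unscaled intensities summed to 16520 and 26055, a log2 difference of 1.72 after scaling. The counts of both glial lists stand beside 9.08% higher and 7.02% lower by that size among all genes by brightest probe. Every marker of both glial lists was read on at least 1 array. Meningeal and fibroblast markers had a median of -1.33 over 9 genes (Col3a1 9.25-fold and Col1a1 7.59-fold lower by their brightest probes, with 3 probes each from -3.21 to -0.42 and from -3.24 to -2.92) and skeletal muscle markers -3.98 over 2. The summed intensity of the 9 meningeal and fibroblast genes differed less, by -0.22 on the log2 scale after scaling. On the spike-in scale all these medians were below 0. How far the makeup of the 2 samples contributed to the values of Slc6a5, Slc6a9, Slc6a11 or Gad2 was not tested.

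**Figure D4:**
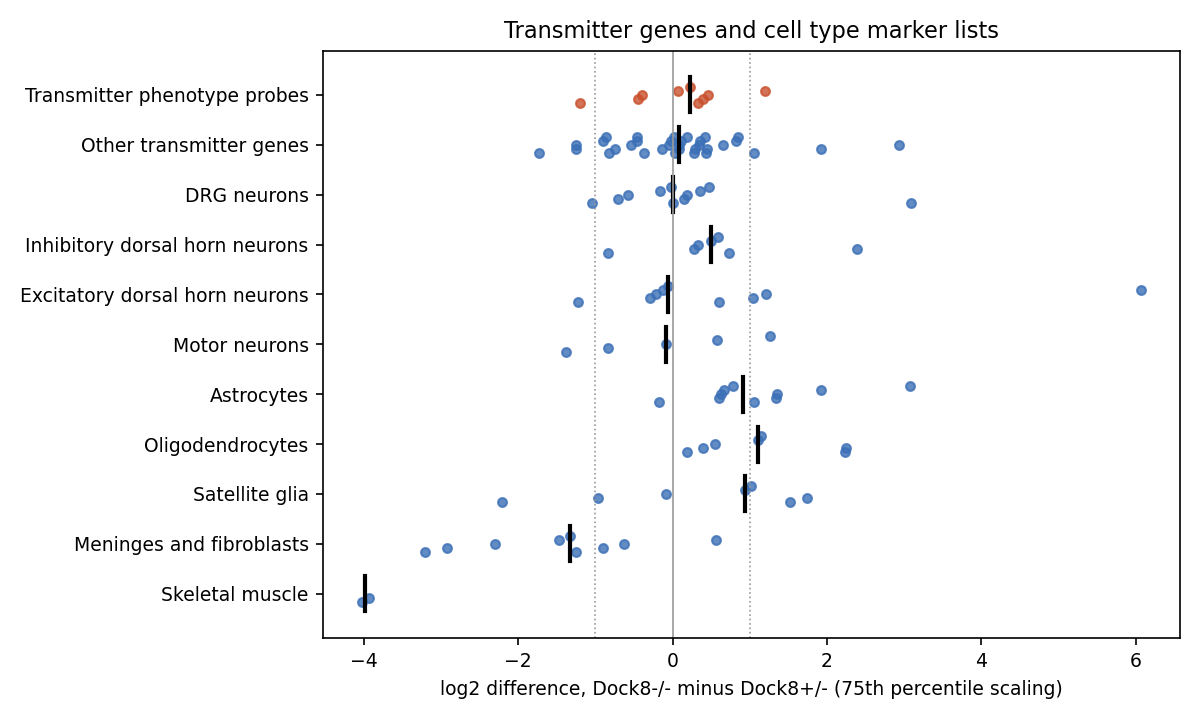
Log2 difference (Dock8-/- minus Dock8+/-, scaled to the 75th percentile) of the 9 transmitter phenotype probes, of other transmitter genes and of marker genes by list, each point 1 probe or the brightest probe of 1 gene, with the median as a black bar. Dotted lines mark 2-fold. Astrocyte and oligodendrocyte markers lie mostly to the right, fibroblast and muscle markers to the left, and the transmitter phenotype probes on both sides of 0; on the spike-in scale all 9 lie below 0.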

How the data were processed

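Dorsal root ganglion RNA of 2 genotypes was measured on 1 single-colour (Cy3) Agilent array each, both on 1 slide per the file headers. The authors obtained the deposited intensity of each spot from Agilent's Feature Extraction software, version 10.7.1.1 per the file headers and 9.5.1.1 per the submitters' processing notes. Per the file headers it was spatially and multiplicatively detrended, with surrogate values at background. The authors' deposited value table holds quantile normalised intensities: 98.9% of its sorted values were equal in both columns (tolerance 0), each with a median of 27.9, and its log2 values correlated with the scanner files at 0.999 or above across probes. It was an alternative, and 0 value columns were unused.

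Spots of 1 probe were averaged as log2 intensity, less the 75th percentile of non-control probes on that array. The 4 non-uniform spots were left out on both arrays, and 0 non-control spots were saturated. "Read" means well above background by the scanner's flag. A probe read on 1 array gives a bound against the lowest intensity read on the other. In lists a gene takes its brightest probe. A 2-fold difference describes size. No test exists with 1 array a group, and the number of arrays limits the precision.

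The named genes were the 9 members with every probe. Of each list up to 4 genes at least 2-fold apart or read on 1 array were eligible, together with Slc17a8, Slc6a13, Abat, Glul, Slc1a2 and Slc1a3. Some results of the list of other transmitter genes are not reported here. Members and lists were chosen with earlier results of these data known. Alternatives were other scalings (percentile or median of probes read on both arrays, quantile, loess with span 0.3, E1A spike-ins), normexp with offset 50, the value table, another detection flag, other filters and 1.5-fold or 3-fold. Keeping non-uniform spots was added after seeing the data. The calculation was tested on simulated data. R 4.3.3 with limma 3.58.1 and Python 3.11.15 were used.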

Additional observations from a re-analysis of the deposited data

How the results depend on the processing

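No paired analysis was possible because each genotype had 1 array and no test was made, and no replicate could be left out. Among the probes of the 9 genes, 1 was lower in Dock8-/- by 2-fold or more and 1 higher. These counts were the same under the other percentile, the median, quantile, loess, the authors' value table and 1.5-fold. Normexp and 3-fold gave 0 lower and 0 higher, and spike-in scaling 8 lower and 0 higher. The other detection flag gave 2 lower, and reading on at least 1 array or no filter 3 lower. Under spike-in scaling Gad2 (NM_008078) turned to -0.66. Over all probes, against 1959 lower and 3271 higher, spike-in scaling gave 23242 and 74, normexp 967 and 988, 1.5-fold 4602 and 7085, 3-fold 580 and 874, the other detection flag 3261 and 6334, and no filter 4334 and 9305, while reading on at least 1 array gave 4006 lower. The share higher among them was 62.5%, against 50.4% under loess, 50.5% under normexp and 0.317% under spike-in scaling. Thresholds and filters change counts by construction, and for the rest the cause was not tested. Keeping non-uniform spots left 1958 lower over all probes and raised the probes of the 9 genes read in Dock8+/- alone from 2 to 3. The mean of both Gad1 probes was 0.23, against 0.40 on the brighter. Signals near 16.1 to 17.4, the lowest read, limit what Slc17a7, Gad1 and Gad2 can show.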
